A study of Arabidopsis thaliana with 9 samples.

Results

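A group of 64 named Arabidopsis thaliana loci was read out by an Agilent array made for long noncoding RNAs, in wild-type seedlings and in mutants of the RNA-processing proteins SERRATE and the nuclear cap-binding complex. The rule for membership used the form of the locus names. Each locus carries a locus name made of a chromosome number, the letter G and 5 digits of which the last is 0, the form used for protein genes, and 26 further loci with such names were left out. This gave 65 transcripts with 195 probes, 3 per transcript, of the 5154 transcripts and 15013 probes of the array. The label of protein genes held for 60 of the 65 transcripts. The reference gene table classes 4 transcripts as ncRNA, namely both transcripts of AT1G58590, GUT15 and AT2G45780, and 1 as lncRNA, AT3G27990. The RNA came from 2-week-old seedlings raised on solid MS medium under long days. The genotypes were the Columbia wild type (Col-0, called WT here), se-2, with a mutant SERRATE allele, and cbp20 cbp80, a double mutant in both cap-binding subunits. The labels name no further allele or transgene and do not say how many seedlings a sample held. Each genotype had 3 samples with 1 array each, 9 arrays in all.

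SERRATE is a zinc finger protein that helps the Dicer enzyme DCL1 cut microRNA (miRNA) precursors, and CBP20 and CBP80 form the complex that binds the cap of new transcripts in the nucleus and takes part in their splicing and in the same cutting step. The loci here are mainly regulators. Phytochromes are photoreceptors of red and far-red light that lead to the breakdown of PIF transcription factors, while the ubiquitin ligase COP1 removes light-promoting factors such as HY5 and LAF1. JAZ proteins repress jasmonate responses until the hormone triggers their degradation. The ABI genes form the chain from abscisic acid to gene expression, and the COR genes encode proteins that accumulate in cold or drying tissue. AGO2 and the DRB proteins work with small RNAs.

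All levels below are log2 signals of a transcript's brightest probe, relative to the 75th percentile of the bright probes of the same array, so 0 marks that percentile and 1 unit is a doubling within a probe. Levels of different probes are not compared with each other. A change is a difference between genotype means with its standard error (SE) from the limma model, n = 3 arrays per genotype, and it is called where the Benjamini-Hochberg adjusted p over all tested probes is under 0.05. In all, 59 of the 65 transcripts were bright enough to test, and 58 were well above background on all 9 arrays. The exception among tested transcripts was MYB79, which was well above background on 2 of the 3 cbp20 cbp80 arrays. The untested ones were LEC1, GEA6 (EM6), ABI4, MEE26, MEE27 and MYB121.

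Per the file headers the 6 mutant arrays were printed on 1 slide and the WT arrays on 3 others, 1 each, so for every comparison with WT the slide and the genotype cannot be told apart. Calls against WT are also given from a fit with the slide as a random block, which gives the same changes with wider SEs. No slide held both WT and a mutant, so that fit cannot separate the slide from the genotype either. A call that it keeps may still be a difference between slides. The median SD of the members was 0.52 among WT arrays, against 0.039 in se-2 and 0.0382 in cbp20 cbp80. WT replicate 1 was the highest of the WT arrays for 30 of the 59 tested members. SERRATE, CBP20, CBP80 and 14 marker genes of green tissue, floral organs and housekeeping were looked up, and the array held 0 of them, so neither the genotypes nor the tissue could be checked. In RNA of whole seedlings, fewer cells of a type and less RNA per cell cannot be told apart. The p-values measure the spread between these samples, which the series calls biological replicates without naming the cultures. The fit takes a single variance per probe for all genotypes, as if they spread alike. Where WT spreads more, the SEs and p-values against WT can be too small, so calls against WT can come too easily.

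The comparisons with WT addressed which transcripts differed between each mutant and WT, where the slide and the genotype cannot be told apart. In se-2, 11 of the 59 tested transcripts rose, 15 fell and 33 did not pass the test. A call in either direction was made for 37.7% of all tested transcripts of the array, higher for 18.1% and lower for 19.5%, and among the named loci the shares were 18.6% higher and 25.4% lower. In cbp20 cbp80, 9 rose, 15 fell and 35 did not pass, or 15.3% and 25.4%, where over all tested transcripts 38.4% were called, 24.4% higher and 14% lower. The median change of the tested members was -0.33 in se-2 and -0.27 in cbp20 cbp80, beside 0.01 and 0.25 over all tested transcripts. These counts and medians depended on the scaling. With the 75th percentile taken over all probes, 28 members were higher and 2 lower in se-2 (54.1% and 4.9% over all tested transcripts), and 24 were higher and 7 lower in cbp20 cbp80 (48.7% and 6.47%). The members' median was then 0.61 in se-2 and 0.33 in cbp20 cbp80, while quantile normalization gave -0.03 and -0.175. Of the 15 falls in se-2, 2 kept their call under the main and 4 further scalings, and of the 11 rises 8 did, and in cbp20 cbp80 these numbers were 7 of 15 and 7 of 9. All 3 mutant arrays lay above all 3 WT arrays for 13 members in se-2 and 12 in cbp20 cbp80 (23.4% and 28.9% over all tested transcripts). They lay below for 23 and 18 members (26.3% and 18.5% over all).

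Both mutants were set against the same WT arrays, so their calls are not independent. Side by side, 8 members were higher in both mutants, 14 were lower in both, 4 were called in se-2 alone, 2 in cbp20 cbp80 alone, 0 were called in opposite directions and 31 were called in neither. Over all tested transcripts the same classes held 16%, 12%, 9.68%, 10.4%, 0% and 52%. With the slide as a random block, 0 members were higher and 2 lower in se-2 (5.54% and 1.28% over all tested transcripts), and 0 were higher and 1 lower in cbp20 cbp80 (4.96% and 0.641%). At an unadjusted p under 0.05 that fit gave 5 higher and 8 lower in se-2 (9.56% and 5.13% over all), and 3 higher and 9 lower in cbp20 cbp80 (10.4% and 3.73%). By their brightest probes, the members that kept a call were AT1G58590.2 in both mutants and FHL in se-2. The adjusted p values of the 24 calls that ended in se-2 were 0.0673 to 0.665, and those of the 23 in cbp20 cbp80 were 0.0682 to 0.65. The counts also moved with single arrays. Without any 1 se-2 array 6 members were higher in se-2, and without WT replicate 2 there were 24 lower ones. Without any 1 cbp20 cbp80 array 5 were higher in that mutant, and without WT replicate 1 or WT replicate 2 there were 15. For these fits with an array left out, the share over all tested transcripts was not counted.

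**Figure D1:**
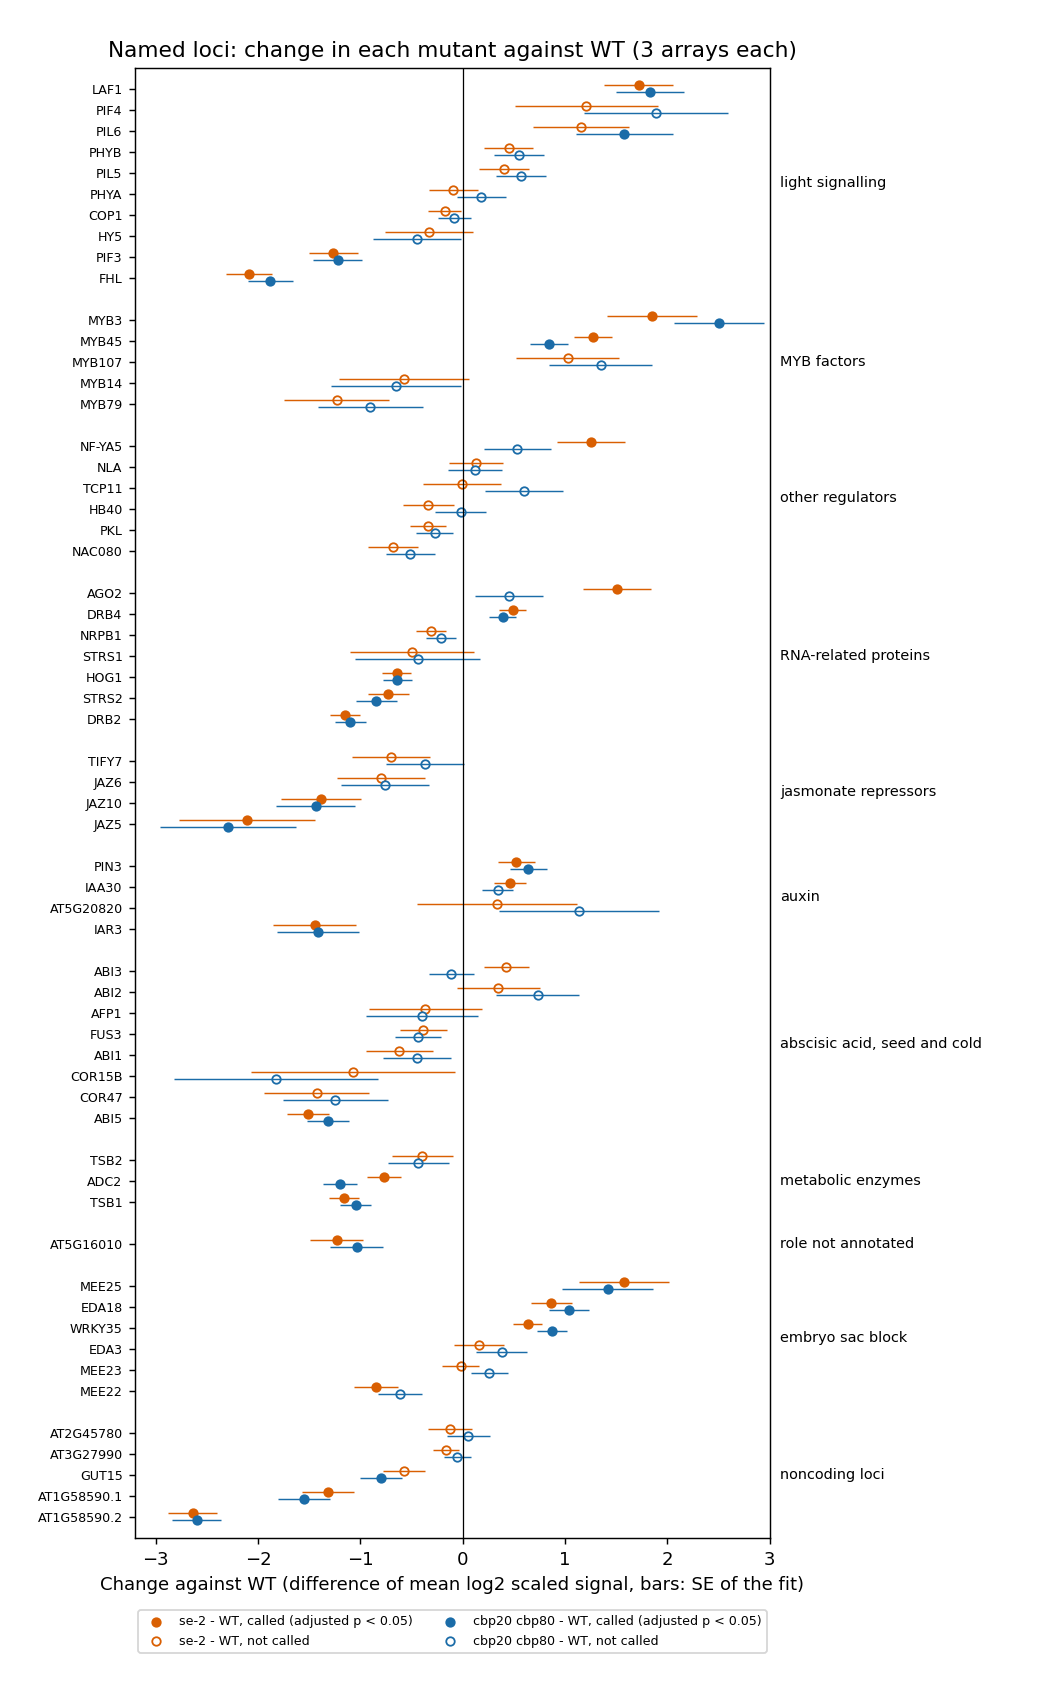
Change of every tested member in se-2 (orange) and cbp20 cbp80 (blue) against WT, in log2 units with the SE of the fit as bars, grouped by role; filled points were called. The largest fall in both mutants is that of AT1G58590.2, at -2.64 and -2.6, and the largest called rise is that of MYB3, at 1.85 and 2.51.

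The largest fall of the group in each mutant was that of AT1G58590.2, 1 of its 5 noncoding transcripts. Of the 5 transcripts, 2 fell in se-2 and 3 in cbp20 cbp80, 0 rose by limma (also at an unadjusted p under 0.05), and 3 and 2 did not pass. AT1G58590.2 stood at 0.34, 0.13 and -0.61 in the WT samples, -2.65, -2.67 and -2.73 in the se-2 samples and -2.73, -2.59 and -2.61 in the cbp20 cbp80 samples. No mutant array came near the WT arrays, and the transcript fell by 2.64 ± 0.24 (6.23-fold, adjusted p = 6.69e-05) in se-2 and by 2.6 ± 0.24 (6.05-fold, adjusted p = 9.01e-05) in cbp20 cbp80. With the slide as a block the adjusted p values were 0.0112 and 0.0156. The other transcript of the locus, AT1G58590.1, had levels of 1.19, 0.24 and 0.28 in the WT samples, -0.79, -0.81 and -0.65 in the se-2 samples and -0.95, -1.02 and -0.96 in the cbp20 cbp80 samples. It fell by 1.32 ± 0.25 (2.49-fold, adjusted p = 0.00392) in se-2 and by 1.55 ± 0.25 (2.93-fold, adjusted p = 0.00188) in cbp20 cbp80, again without overlap, and with the slide as a block its adjusted p values were 0.197 and 0.137. Its change in se-2 was -0.37 (adjusted p = 0.266) with the percentile over all probes. All 6 probes of the locus were lower in both mutants, with changes between -1.32 and -2.64 for se-2 and between -1.55 and -2.6 for cbp20 cbp80, so the transcripts are not separate evidence. With the slide as a block the other probes of AT1G58590.1 kept their calls, at adjusted p = 0.00285 and 0.0173 in se-2. In cbp20 cbp80 these were 0.00397 and 0.0188. For AT1G58590.2 a further probe lost its call (0.305 in se-2 and 0.224 in cbp20 cbp80), and another kept it (0.00783 and 0.00988). Which transcript kept its call thus depended on the probe. The reference places the locus on chromosome 1 between AT1G09705 and the protein-coding AT1G58602, without overlap, and gives it no role.

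GUT15, whose name stands for a gene with an unstable transcript, read 4.87, 4.54 and 4.05 in the WT samples, 3.90, 3.89 and 3.96 in the se-2 samples and 3.69, 3.72 and 3.66 in the cbp20 cbp80 samples. It was lower in every mutant array and fell by 0.80 ± 0.21 (1.74-fold, adjusted p = 0.0160) in cbp20 cbp80, a call that ended with the slide as a block (0.372) and without cbp20 cbp80 replicate 1 or 3 (adjusted p up to 0.0543). It also ended with the percentile over all probes (-0.20, adjusted p = 0.527), quantile normalization (-0.44, 0.0776) and the deposited values (-0.45, 0.0628). In se-2 the change was -0.57 ± 0.21 (adjusted p = 0.0568). The other probes of GUT15 were not called in either mutant, at -0.38 (adjusted p = 0.147) and -0.16 (0.384) in cbp20 cbp80. GUT15 overlaps the pseudogene AT2G10045 in the reference, and the strand that its probes read is not given in the sources used here. AT2G45780, between CPFTSY and PMM, changed by -0.12 ± 0.21 (adjusted p = 0.679) in se-2 and 0.06 ± 0.21 (adjusted p = 0.849) in cbp20 cbp80. AT3G27990, which overlaps the protein-coding AT3G27980, changed by -0.16 ± 0.13 (adjusted p = 0.359) and -0.05 ± 0.13 (adjusted p = 0.772). Neither passed in either mutant.

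Among the 10 light-signalling genes, PIF3 and the phytochrome A shuttle gene FHL fell in both mutants and the MYB gene LAF1 rose in both. PIL6 rose in cbp20 cbp80, and 7 genes did not pass in se-2 and 6 in cbp20 cbp80. FHL, whose protein helps carry phytochrome A into the nucleus, stood at -1.84, -1.0 and -1.15 in the WT samples, -3.33, -3.51 and -3.40 in the se-2 samples and -3.27, -3.13 and -3.23 in the cbp20 cbp80 samples. Its mutant arrays lay far below the lowest WT array. The fall was 2.08 ± 0.22 (4.24-fold, adjusted p = 0.000188) in se-2 and 1.88 ± 0.22 (3.67-fold, adjusted p = 0.000382) in cbp20 cbp80. With the slide as a block the call held in se-2 (adjusted p = 0.0390) and ended in cbp20 cbp80 (0.0682). The other probes of FHL did not keep their calls in se-2 with the block (0.106 and 0.143). PIF3, a bHLH factor that binds the active phytochromes, read 2.81, 2.99 and 3.76 in the WT samples, 1.90, 1.95 and 1.92 in the se-2 samples and 2.01, 1.97 and 1.92 in the cbp20 cbp80 samples. It fell by 1.26 ± 0.24 (2.40-fold, adjusted p = 0.00362) in se-2 and by 1.22 ± 0.24 (2.33-fold, adjusted p = 0.00456) in cbp20 cbp80, and no arrays overlapped. LAF1, a MYB factor of phytochrome A signalling and a target of COP1, read -4.98, -4.14 and -3.43 in the WT samples, -2.48, -2.47 and -2.44 in the se-2 samples and -2.34, -2.34 and -2.38 in the cbp20 cbp80 samples. The WT arrays were the ones that spread, and LAF1 rose by 1.72 ± 0.34 (3.30-fold, adjusted p = 0.00430) in se-2 and by 1.83 ± 0.34 (3.56-fold, adjusted p = 0.00345) in cbp20 cbp80. PIF3 had slide-blocked adjusted p values of 0.153 and 0.188, and LAF1 0.117 and 0.110. With normexp background correction LAF1 changed by 0.096 (adjusted p = 0.379) in se-2, which ended that call, and by 0.36 in cbp20 cbp80. The fall of PIF3 in se-2 ended with the percentile over all probes (-0.315, adjusted p = 0.200).

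In cbp20 cbp80 the PIF genes were called in both directions. PIL6, also called PIF5, stood at 2.89, 5.11 and 3.64 in the WT samples, 5.05, 5.01 and 5.05 in the se-2 samples and 5.48, 5.47 and 5.44 in the cbp20 cbp80 samples. It rose by 1.58 ± 0.47 (2.99-fold, adjusted p = 0.0284) in cbp20 cbp80, while in se-2 the arrays overlapped those of WT and the change was 1.16 ± 0.47 (adjusted p = 0.0845). That rise ended with the slide as a block (0.328), without any 1 cbp20 cbp80 array and without WT replicate 1 or 3 (adjusted p up to 0.0748). PIF4, which promotes elongation growth in shade and warmth, read 2.57, 5.11 and 1.86 in the WT samples, 4.39, 4.37 and 4.41 in the se-2 samples and 5.11, 5.05 and 5.04 in the cbp20 cbp80 samples. WT replicate 2 reached the level of the mutants and the other two WT arrays lay well below, so the changes of 1.21 ± 0.70 (adjusted p = 0.206) and 1.89 ± 0.70 (adjusted p = 0.0628) did not pass. PIL5 (PIF1), a repressor of seed germination in the dark, changed by 0.40 ± 0.24 (adjusted p = 0.225) and 0.57 ± 0.24 (adjusted p = 0.0989). The photoreceptor genes did not pass in either mutant. PHYA changed by -0.09 ± 0.24 (adjusted p = 0.792) and 0.18 ± 0.24 (adjusted p = 0.573), and PHYB by 0.45 ± 0.24 (adjusted p = 0.173) and 0.55 ± 0.24 (adjusted p = 0.103). COP1 changed by -0.18 ± 0.16 (adjusted p = 0.431) and -0.08 ± 0.16 (adjusted p = 0.721), and HY5, a bZIP factor it degrades, by -0.33 ± 0.43 (adjusted p = 0.578) and -0.45 ± 0.43 (adjusted p = 0.436), with WT levels of 3.27, 1.23 and 2.35.

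**Figure D2:**
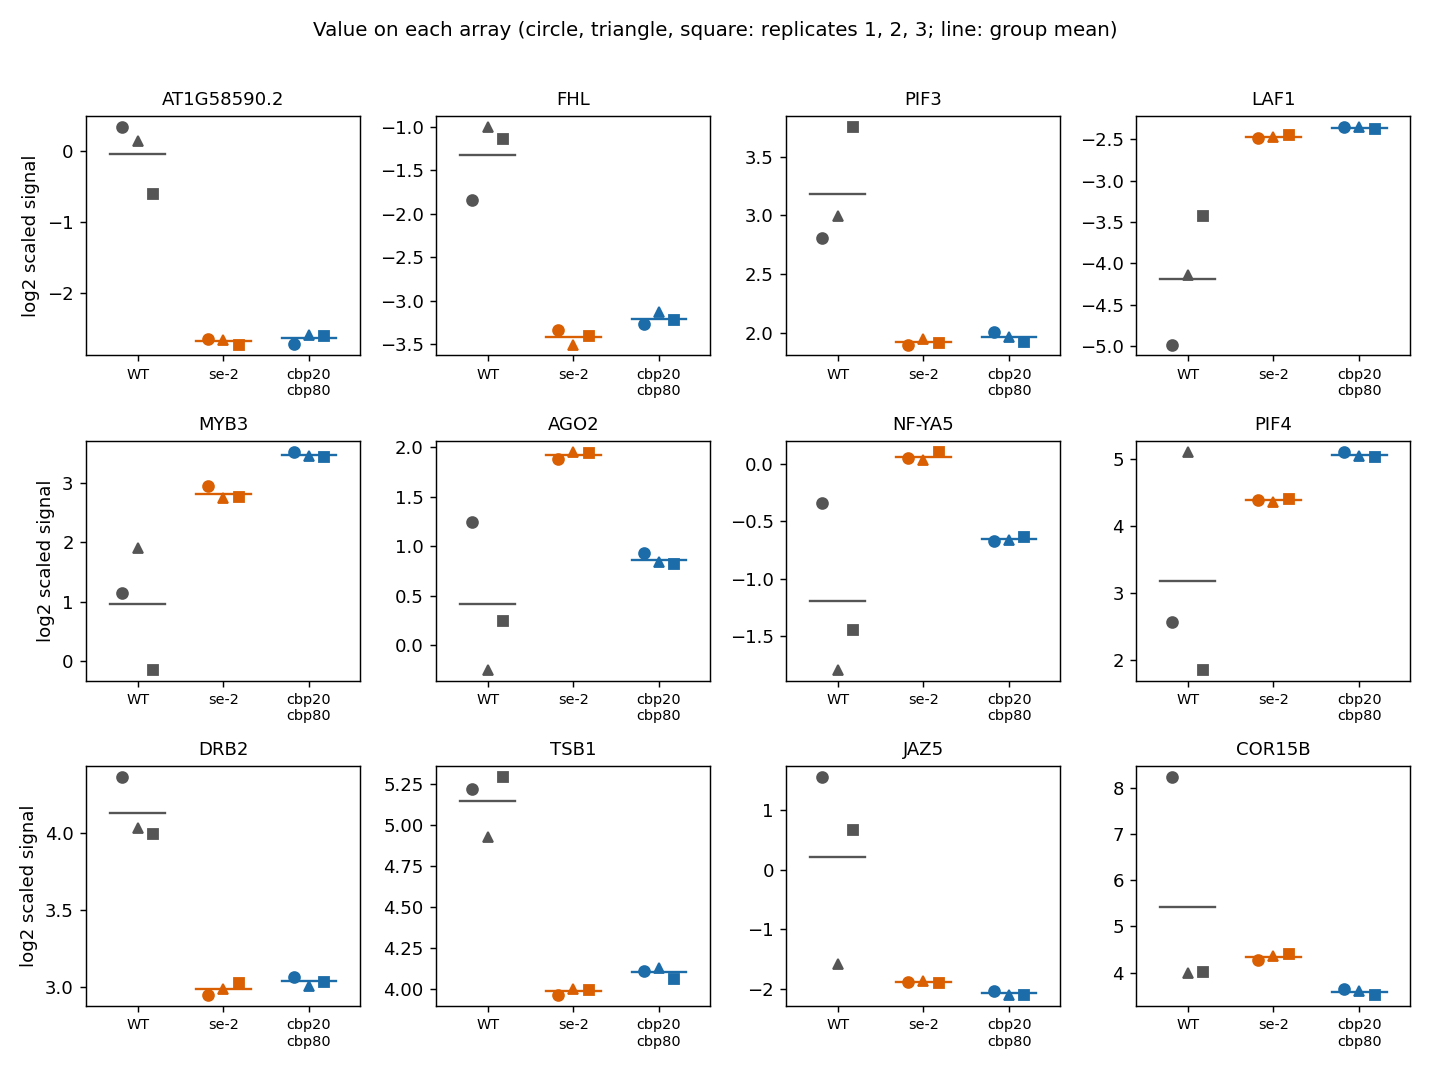
Scaled log2 signal of 12 members on each of the 9 arrays, with a line at each group mean. The mutant arrays of a genotype lie close together while the WT arrays spread, most widely for COR15B, whose WT replicate 1 lies at 8.24 against 3.98 and 4.02.

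Of the 6 MYB factor genes 5 were tested, 2 rose in both mutants, 0 fell and 3 did not pass. At an unadjusted p under 0.05 limma gave 1 lower in se-2, MYB79, and 0 in cbp20 cbp80. MYB3, a repressor of phenylpropanoid genes, gave the largest called rise in each mutant, with levels of 1.15, 1.89 and -0.15 in the WT samples, 2.95, 2.74 and 2.77 in the se-2 samples and 3.52, 3.46 and 3.43 in the cbp20 cbp80 samples. All mutant arrays exceeded all WT arrays, and MYB3 rose by 1.85 ± 0.44 (3.61-fold, adjusted p = 0.0104) in se-2 and by 2.51 ± 0.44 (5.67-fold, adjusted p = 0.00264) in cbp20 cbp80. MYB45, whose role is not given here, read -1.59, -1.08 and -1.71 in the WT samples, -0.12, -0.23 and -0.22 in the se-2 samples and -0.59, -0.60 and -0.66 in the cbp20 cbp80 samples. It rose by 1.27 ± 0.19 (2.41-fold, adjusted p = 0.00100) in se-2 and by 0.84 ± 0.19 (1.79-fold, adjusted p = 0.00792) in cbp20 cbp80, with arrays that again did not overlap. The slide-blocked adjusted p values of MYB3 were 0.237 and 0.109, and those of MYB45 0.116 and 0.347. MYB107, a regulator of suberin genes, changed by 1.03 ± 0.50 (adjusted p = 0.144) and 1.35 ± 0.50 (adjusted p = 0.0636), and WT replicate 3 alone stood at -4.78 against -2.56 and -2.89. MYB14 changed by -0.57 ± 0.64 (adjusted p = 0.510) and -0.65 ± 0.64 (adjusted p = 0.442), and MYB79 by -1.23 ± 0.51 (adjusted p = 0.0899) and -0.90 ± 0.51 (adjusted p = 0.194). MYB121 exceeded background clearly on 1 WT array and on 0 mutant arrays and was not tested.

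Of the 7 genes for RNA-related proteins, AGO2 and DRB4 rose in se-2 and DRB2, HOG1 and STRS2 fell. In cbp20 cbp80 DRB4 rose, the same 3 genes fell and 3 did not pass. AGO2 encodes an Argonaute protein that binds small RNAs and is itself a target of miR403. Its levels were 1.25, -0.25 and 0.25 in the WT samples, 1.88, 1.96 and 1.95 in the se-2 samples and 0.93, 0.84 and 0.82 in the cbp20 cbp80 samples. The se-2 arrays stood above all others, and the cbp20 cbp80 arrays lay within the range of WT. AGO2 rose by 1.51 ± 0.33 (2.85-fold, adjusted p = 0.00758) in se-2, while the change in cbp20 cbp80 was 0.45 ± 0.33 (adjusted p = 0.314). DRB2, a double-stranded RNA binding protein that acts in miRNA pathways, read 4.37, 4.04 and 4.0 in the WT samples, 2.95, 2.99 and 3.02 in the se-2 samples and 3.07, 3.01 and 3.03 in the cbp20 cbp80 samples. It fell by 1.15 ± 0.15 (2.22-fold, adjusted p = 0.000512) and by 1.1 ± 0.15 (2.14-fold, adjusted p = 0.000711) in se-2 and cbp20 cbp80, with arrays that did not overlap. With the percentile over all probes the call in se-2 ended (-0.20, adjusted p = 0.359) and the change in cbp20 cbp80 was -0.50. DRB4, the partner of the Dicer enzyme DCL4, was measured at 1.06, 1.24 and 1.01 in the WT samples, 1.58, 1.60 and 1.59 in the se-2 samples and 1.54, 1.47 and 1.46 in the cbp20 cbp80 samples. It rose by 0.49 ± 0.13 (1.40-fold, adjusted p = 0.0192) and by 0.39 ± 0.13 (1.31-fold, adjusted p = 0.0472).

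HOG1, also called SAHH1, encodes the S-adenosylhomocysteine hydrolase needed for DNA methylation. It read 7.45, 7.39 and 7.70 in the WT samples, 6.86, 6.86 and 6.88 in the se-2 samples and 6.93, 6.90 and 6.79 in the cbp20 cbp80 samples. HOG1 fell by 0.65 ± 0.14 (1.56-fold, adjusted p = 0.00779) in se-2 and by 0.64 ± 0.14 (1.55-fold, adjusted p = 0.00850) in cbp20 cbp80, but quantile normalization turned the changes to 0.46 and 0.23 and the percentile over all probes turned that in se-2 to 0.30. STRS2, a DEAD-box RNA helicase of stress signalling, fell by 0.73 ± 0.20 (1.66-fold, adjusted p = 0.0210) and by 0.84 ± 0.20 (1.79-fold, adjusted p = 0.0114), and the percentile over all probes turned the change in se-2 to 0.22 and ended the call in cbp20 cbp80 (-0.245, adjusted p = 0.255). The calls of HOG1 in both mutants and of STRS2 in se-2 ended also with the deposited values (adjusted p = 0.797, 0.306 and 0.115). Its relative STRS1, with WT levels of 2.02, 3.98 and 4.90, changed by -0.50 ± 0.61 (adjusted p = 0.553) and -0.44 ± 0.61 (adjusted p = 0.586). NRPB1, the largest subunit of RNA polymerase II, changed by -0.31 ± 0.15 (adjusted p = 0.131) and -0.21 ± 0.15 (adjusted p = 0.293). None of the calls of this group held with the slide as a block, with adjusted p values between 0.0988 and 0.532 for se-2 and between 0.129 and 0.65 for cbp20 cbp80. The call of DRB4 ended without any 1 array of the mutant compared (adjusted p up to 0.0726 in se-2 and 0.142 in cbp20 cbp80). That of STRS2 in se-2 ended without any 1 se-2 array (up to 0.0674).

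Targets of miRNAs were few among the named loci: AGO2 (miR403), NF-YA5 (miR169), IAR3 (miR167), NAC080 (miR164) and NLA (miR827). Of these 5, 2 rose and 1 fell in se-2, and 0 rose (also 0 at an unadjusted p under 0.05 by limma) and 1 fell in cbp20 cbp80. NF-YA5, a subunit of the CCAAT-binding factor NF-Y linked to drought response, read -0.34, -1.79 and -1.45 in the WT samples, 0.05, 0.04 and 0.11 in the se-2 samples and -0.67, -0.66 and -0.64 in the cbp20 cbp80 samples. It rose by 1.26 ± 0.33 (2.39-fold, adjusted p = 0.0167) in se-2, and the change in cbp20 cbp80 was 0.54 ± 0.33 (adjusted p = 0.231). NAC080, a NAC domain factor, was lower on every se-2 array than on the WT arrays, at -0.70, -0.75 and -0.70 against 0.46, -0.57 and 0.00, and changed by -0.68 ± 0.24 (adjusted p = 0.0527) in se-2 and -0.51 ± 0.24 (adjusted p = 0.128) in cbp20 cbp80. The other probes of NAC080 gave 0.01 (adjusted p = 0.978) and -0.10 (0.720) in se-2. NLA, a ubiquitin ligase of nitrogen and phosphate supply, changed by 0.13 ± 0.26 (adjusted p = 0.731) and 0.12 ± 0.26 (adjusted p = 0.748). The rises of AGO2 and NF-YA5 had adjusted p values of 0.196 and 0.275 with the slide as a block, and that of NF-YA5 ended without any 1 se-2 array (up to 0.0545).

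None of the remaining regulators passed in either mutant by its brightest probe. TCP11, the reference symbol of the clock factor CHE, which binds the promoter of CCA1, read 2.29, 4.01 and 2.83 in the WT samples, 3.05, 3.1 and 2.97 in the se-2 samples and 3.68, 3.68 and 3.56 in the cbp20 cbp80 samples. Both mutants overlapped WT, with changes of -0.01 ± 0.38 (adjusted p = 0.992) and 0.60 ± 0.38 (adjusted p = 0.242). The chromatin remodeller PKL changed by -0.34 ± 0.18 (adjusted p = 0.165) and -0.27 ± 0.18 (adjusted p = 0.253). Its other probes were both called lower in both mutants, at -0.86 (adjusted p = 0.00132) and -0.67 (0.00591) in se-2 and -0.76 (0.00257) and -0.60 (0.0108) in cbp20 cbp80. The homeodomain gene HB40 changed by -0.33 ± 0.25 (adjusted p = 0.325) and -0.02 ± 0.25 (adjusted p = 0.954). With NF-YA5, NAC080 and NLA these make 6 regulators, of which 1 rose in se-2 and 0 in cbp20 cbp80, and 0 fell in either mutant. At an unadjusted p under 0.05 limma gave 1 lower in se-2, NAC080, and 0 in cbp20 cbp80.

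Of the 4 jasmonate repressor genes, JAZ5 and JAZ10 fell in both mutants and 2 did not pass. JAZ5 stood at 1.56, -1.58 and 0.67 in the WT samples, -1.89, -1.88 and -1.91 in the se-2 samples and -2.03, -2.10 and -2.10 in the cbp20 cbp80 samples, and JAZ10 at 1.12, -0.66 and 0.22 in the WT samples, -1.29, -1.24 and -0.94 in the se-2 samples and -1.23, -1.20 and -1.21 in the cbp20 cbp80 samples. In both genes the mutant arrays lay below a WT group that itself spanned more than the other genotypes did. JAZ5 fell by 2.11 ± 0.67 (4.31-fold, adjusted p = 0.0344) in se-2 and by 2.29 ± 0.67 (4.90-fold, adjusted p = 0.0249) in cbp20 cbp80. JAZ10 fell by 1.39 ± 0.39 (2.61-fold, adjusted p = 0.0217) and by 1.44 ± 0.39 (2.71-fold, adjusted p = 0.0187). JAZ6, with WT levels of 3.41, 1.71 and 3.54, changed by -0.80 ± 0.43 (adjusted p = 0.179) and -0.76 ± 0.43 (adjusted p = 0.192), and TIFY7 (JAZ9), at 3.81, 2.13 and 2.48 in WT, by -0.70 ± 0.38 (adjusted p = 0.182) and -0.37 ± 0.38 (adjusted p = 0.466). The 4 calls ended with the slide as a block, with adjusted p values between 0.327 and 0.419 for se-2 and between 0.296 and 0.409 for cbp20 cbp80. That of JAZ5 ended also without any 1 array of the mutant compared and without WT replicate 1 or 3 (up to 0.0863 in se-2 and 0.0674 in cbp20 cbp80). The calls of JAZ10 ended without se-2 replicate 1 or 2 (up to 0.0706) and without any 1 cbp20 cbp80 array (up to 0.0546). The calls of both genes ended with the percentile over all probes, at -1.16 (adjusted p = 0.143) and -0.44 (0.334) in se-2 and -1.7 (0.0515) and -0.84 (0.0913) in cbp20 cbp80.

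Abscisic acid, seed and cold genes gave 1 fall in each mutant and 0 rises by limma among 8 tested members, also 0 rises at an unadjusted p under 0.05. ABI5, a bZIP factor that mediates abscisic acid responses in seeds and seedlings, read 0.43, 0.27 and -0.33 in the WT samples, -1.44, -1.40 and -1.34 in the se-2 samples and -1.16, -1.22 and -1.21 in the cbp20 cbp80 samples. No array of a mutant reached WT, and ABI5 fell by 1.51 ± 0.20 (2.85-fold, adjusted p = 0.000648) in se-2 and by 1.32 ± 0.20 (2.49-fold, adjusted p = 0.00141) in cbp20 cbp80, and with the slide as a block the calls ended (0.0673 and 0.122). With the percentile over all probes the call in se-2 ended (-0.56, adjusted p = 0.0841) and the change in cbp20 cbp80 was -0.72. The cold genes varied widely among the WT arrays. COR15B, which encodes a chloroplast protein of freezing tolerance, read 8.24, 3.98 and 4.02 in the WT samples, 4.28, 4.36 and 4.39 in the se-2 samples and 3.65, 3.59 and 3.52 in the cbp20 cbp80 samples. WT replicate 1 stood far above every other array, and the changes of -1.07 ± 1.0 (adjusted p = 0.434) and -1.83 ± 1.0 (adjusted p = 0.179) did not pass. The dehydrin gene COR47, at 8.70, 7.46 and 6.25 in WT, changed by -1.43 ± 0.51 (adjusted p = 0.0555) and -1.25 ± 0.51 (adjusted p = 0.0866). On WT replicate 1 the level was the highest of the WT arrays for 10 of the 12 tested members of the jasmonate and the abscisic acid, seed and cold lists. These lists were chosen with the data known. That array was also the highest for 30 of all 59 tested members, and the share over all tested transcripts was not counted. Without that array JAZ5 changed by -1.44 (adjusted p = 0.0839) in se-2 and -1.62 (0.0584) in cbp20 cbp80. JAZ10 changed by -0.94 (0.0259) and -0.99 (0.0221), and ABI5 by -1.36 (0.00144) and -1.17 (0.00292).

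The other members of the abscisic acid pathway did not pass. AFP1, a protein that binds ABI5 and promotes its loss, changed by -0.37 ± 0.55 (adjusted p = 0.635) and -0.40 ± 0.55 (adjusted p = 0.590). The phosphatase genes ABI1 and ABI2, which hold the pathway off without the hormone, changed by -0.62 ± 0.33 (adjusted p = 0.174) and 0.35 ± 0.41 (adjusted p = 0.532) in se-2. In cbp20 cbp80 the changes were -0.44 ± 0.33 (adjusted p = 0.316) for ABI1 and 0.74 ± 0.41 (adjusted p = 0.183) for ABI2. ABI3 and FUS3, B3 factors of seed maturation, changed in se-2 by 0.43 ± 0.22 (adjusted p = 0.162) and -0.38 ± 0.23 (adjusted p = 0.215). In cbp20 cbp80 they changed by -0.11 ± 0.22 (adjusted p = 0.711) and -0.43 ± 0.23 (adjusted p = 0.162). The seed genes LEC1 and GEA6 and the AP2 factor gene ABI4 were not well above background on all 3 arrays of any genotype. LEC1 was so on 0 of 9 arrays, GEA6 on 1 WT array and ABI4 on 2 se-2 and 2 cbp20 cbp80 arrays.

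Of the 4 auxin genes, PIN3 rose and IAR3 fell in both mutants, and IAA30 rose in se-2. IAR3, an amidohydrolase that frees auxin from its amino acid conjugates, read 3.85, 1.95 and 2.92 in the WT samples, 1.51, 1.41 and 1.47 in the se-2 samples and 1.52, 1.48 and 1.49 in the cbp20 cbp80 samples. It lay below WT on every mutant array and fell by 1.44 ± 0.41 (2.72-fold, adjusted p = 0.0217) in se-2 and by 1.41 ± 0.41 (2.66-fold, adjusted p = 0.0237) in cbp20 cbp80. Without WT replicate 1 the changes were -0.97 and -0.94, and without any 1 array of the mutant compared the calls ended (adjusted p up to 0.0657 and 0.0664). They ended also with the percentile over all probes (-0.50, adjusted p = 0.301, and -0.81, 0.114). PIN3, an auxin efflux carrier, read 2.15, 2.11 and 2.70 in the WT samples, 2.85, 2.83 and 2.85 in the se-2 samples and 2.93, 2.99 and 2.95 in the cbp20 cbp80 samples. It rose by 0.53 ± 0.18 (1.44-fold, adjusted p = 0.0481) and by 0.64 ± 0.18 (1.56-fold, adjusted p = 0.0223), and these calls ended without any 1 array of the mutant compared (up to 0.127 and 0.0745). In se-2 that of PIN3 ended also without WT replicate 1 or 2. With quantile normalization PIN3 did not pass (adjusted p = 0.0752 and 0.0942), nor did it with the deposited values (0.0789 and 0.0979), and the percentile over all probes gave 1.47 and 1.24. The Aux/IAA repressor gene IAA30 rose by 0.46 ± 0.15 (1.38-fold, adjusted p = 0.0415) in se-2, which normexp background correction turned to -0.19 and which ended with quantile normalization (adjusted p = 0.197), with the deposited values (0.221) and without any 1 se-2 array (up to 0.126). In cbp20 cbp80 it changed by 0.34 ± 0.15 (adjusted p = 0.113). AT5G20820 (SAUR76), of the small auxin up RNA family, had WT levels of -1.15, -1.40 and 2.03 that enclosed both mutants, and changed by 0.34 ± 0.78 (adjusted p = 0.763) and 1.14 ± 0.78 (adjusted p = 0.281). The slide-blocked adjusted p values of the auxin calls were between 0.295 and 0.665 for se-2 and between 0.324 and 0.438 for cbp20 cbp80.

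Of 3 metabolic enzyme genes 2 fell in both mutants. TSB1, the main beta subunit of tryptophan synthase, read 5.22, 4.93 and 5.30 in the WT samples, 3.96, 4.0 and 3.99 in the se-2 samples and 4.11, 4.13 and 4.06 in the cbp20 cbp80 samples. All 6 mutant arrays lay below WT, and TSB1 fell by 1.16 ± 0.15 (2.24-fold, adjusted p = 0.000445) in se-2 and by 1.05 ± 0.15 (2.07-fold, adjusted p = 0.000852) in cbp20 cbp80. TSB1 was called lower in both mutants by another probe too. It was not called by the remaining probe, at -0.44 (adjusted p = 0.684) in se-2 and -0.285 (0.789) in cbp20 cbp80. Its relative TSB2 changed by -0.39 ± 0.30 (adjusted p = 0.335) and -0.43 ± 0.30 (adjusted p = 0.284). ADC2, an arginine decarboxylase of putrescine synthesis, read 6.78 and 6.59 in the WT samples, 5.95, 5.93 and 5.87 in the se-2 samples and 5.37, 5.60 and 5.49 in the cbp20 cbp80 samples, with the spot on WT replicate 2 left out as an outlier (n = 2 in WT). ADC2 fell by 0.77 ± 0.16 (1.71-fold, adjusted p = 0.00861) and by 1.20 ± 0.16 (2.30-fold, adjusted p = 0.00122), and the percentile over all probes turned the change in se-2 to 0.23. Its call in se-2 also ended with quantile normalization (-0.03, adjusted p = 0.905) and the deposited values (-0.43, 0.300), and that in cbp20 cbp80 with the percentile over all probes (-0.55, 0.0555). The other probes of ADC2 were not called in either mutant. They gave -0.31 (adjusted p = 0.507) and -0.04 (0.956) in se-2, and -0.76 (0.113) and -0.40 (0.495) in cbp20 cbp80. AT5G16010, to which the reference gives no symbol, read 5.03, 4.03 and 4.09 in the WT samples, 3.17, 3.14 and 3.15 in the se-2 samples and 3.44, 3.38 and 3.23 in the cbp20 cbp80 samples. It fell by 1.23 ± 0.26 (2.35-fold, adjusted p = 0.00650) and by 1.04 ± 0.26 (2.05-fold, adjusted p = 0.0143), the latter not without cbp20 cbp80 replicate 3 (adjusted p = 0.0531). With the percentile over all probes the calls of AT5G16010 ended (-0.28, adjusted p = 0.409, and -0.44, 0.224), as did that of TSB1 in se-2 (-0.215, 0.234), while TSB1 in cbp20 cbp80 was at -0.45. With the slide as a block the adjusted p values were 0.0874 and 0.140 for TSB1, 0.521 and 0.285 for ADC2 and 0.267 and 0.380 for AT5G16010.

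A set of 8 members named after embryo sac or maternal-effect embryo arrest mutants (EDA and MEE) lies in a stretch of 19 reference genes, 15 of them protein-coding, on chromosome 2. Of the 6 tested, 3 rose and 1 fell in se-2, and 3 rose and 0 fell in cbp20 cbp80, with 1 lower, MEE22, at an unadjusted p under 0.05 by limma. The rises were those of MEE25, EDA18 and WRKY35 (MEE24) in both mutants. MEE25 read -1.18, -2.83 and -3.15 in the WT samples, -0.72, -0.81 and -0.89 in the se-2 samples and -0.97, -0.99 and -0.95 in the cbp20 cbp80 samples, and it rose by 1.58 ± 0.44 (2.98-fold, adjusted p = 0.0220) and by 1.42 ± 0.44 (2.67-fold, adjusted p = 0.0338). WT replicate 1 lay close to the mutants and the other WT arrays lower. EDA18 read -1.79, -1.70 and -2.40 in the WT samples, -1.07, -1.16 and -1.07 in the se-2 samples and -0.90, -0.90 and -0.97 in the cbp20 cbp80 samples, and it rose by 0.87 ± 0.20 (1.82-fold, adjusted p = 0.00922) and by 1.04 ± 0.20 (2.05-fold, adjusted p = 0.00409). WRKY35, a WRKY transcription factor gene, read -0.98, -1.30 and -1.02 in the WT samples, -0.48, -0.55 and -0.37 in the se-2 samples and -0.23, -0.25 and -0.19 in the cbp20 cbp80 samples, and it rose by 0.63 ± 0.15 (1.55-fold, adjusted p = 0.00944) and by 0.88 ± 0.15 (1.84-fold, adjusted p = 0.00207). The arrays of both mutants lay above WT for each of these 3 genes. MEE22 fell by 0.85 ± 0.22 (1.80-fold, adjusted p = 0.0150) in se-2, which the percentile over all probes turned to 0.10, and changed by -0.61 ± 0.22 (adjusted p = 0.0536) in cbp20 cbp80. Its neighbour MEE23 changed by -0.02 ± 0.18 (adjusted p = 0.945) and 0.26 ± 0.18 (adjusted p = 0.286), and EDA3 by 0.16 ± 0.25 (adjusted p = 0.644) and 0.38 ± 0.25 (adjusted p = 0.254). MEE26 and MEE27 were well above background on 1 WT array each and on 0 mutant arrays.

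None of these calls held with the slide as a block, where the adjusted p values were between 0.303 and 0.492 for se-2 and between 0.242 and 0.373 for cbp20 cbp80. The call of MEE25 ended without any 1 array of the mutant compared and without WT replicate 2 in both mutants, and without WT replicate 3 in cbp20 cbp80 (up to 0.0675 in se-2 and 0.0855 in cbp20 cbp80). In cbp20 cbp80 it ended also with quantile normalization (1.19, adjusted p = 0.0597) and the deposited values (1.21, 0.0615). That of MEE22 in se-2 ended without any 1 se-2 array (up to 0.0518). The members of the stretch were called in both directions in se-2 under the scaling used, MEE22 lower and WRKY35, MEE25 and EDA18 higher, and with the percentile over all probes MEE22 did not keep its sign.

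The mutants were compared with each other in a fit of their 6 arrays, which share a slide. Of the 59 tested members 9 were higher in se-2 than in cbp20 cbp80, 21 were lower and 29 did not pass. Over all tested transcripts 48% were called, 11.7% higher and 36.3% lower, and among the members the shares were 15.3% and 35.6%, close to that background. The arrays did not overlap for 14 members in the higher and 30 in the lower direction (15.2% and 45.7% over all). The median difference of the members was -0.10 and that of all tested transcripts -0.21. The sign of small differences moved with the scaling. The members called were 18 higher and 8 lower after quantile normalization, 19 and 7 in the deposited values, and 33 and 3 where the percentile was taken from all probes. The median difference of all tested probes moved too, from -0.15 to 0.06, 0.09 and 0.20 in that order. The turn was therefore not particular to the members, and shares called over all tested transcripts were not counted under these scalings. Of the 21 lower members 6 kept their sign under the main and 4 further scalings, and of the 9 higher members 7 did.

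AGO2 differed most. The mean of its 3 arrays was 1.93 ± 0.04 in se-2 and 0.87 ± 0.06 in cbp20 cbp80 (SD, n = 3), a difference of 1.06 ± 0.05 (95% interval 0.94 to 1.19, adjusted p = 6.94e-05) or 2.09-fold. Its change against WT passed in se-2 and not in cbp20 cbp80, and this difference is the test that bears on that contrast. NF-YA5, another miRNA target, was higher in se-2 by 0.72 ± 0.04 (95% interval 0.61 to 0.83, adjusted p = 0.000137). COR15B was higher by 0.76 ± 0.06 (95% interval 0.62 to 0.90, adjusted p = 0.000325), with means of 4.34 ± 0.06 and 3.59 ± 0.07. ADC2 was higher by 0.43 ± 0.07 (95% interval 0.25 to 0.61, adjusted p = 0.00504) and MYB45 by 0.43 ± 0.05 (95% interval 0.30 to 0.56, adjusted p = 0.00167). These 5 kept their sign under all 5 scalings. A smaller difference of the same direction was 0.23 ± 0.04 (95% interval 0.12 to 0.34, adjusted p = 0.00934) for GUT15. Its other probes were not called, at 0.08 (adjusted p = 0.193) and -0.11 (0.083). AT1G58590.1 was higher by 0.23 ± 0.06 (95% interval 0.08 to 0.38, adjusted p = 0.0225), and its other probes were not called, at 0.07 (0.187) and 0.06 (0.402). That call ended without se-2 replicate 3 or cbp20 cbp80 replicate 2 or 3 (adjusted p up to 0.0689). ABI3 was higher by 0.54 ± 0.11 (95% interval 0.26 to 0.82, adjusted p = 0.0120), which normexp background correction turned to -0.26. JAZ5 was higher by 0.19 ± 0.04 (95% interval 0.08 to 0.29, adjusted p = 0.0160), which normexp turned to -0.03 and which ended without se-2 replicate 1 or 2 or cbp20 cbp80 replicate 2 (up to 0.054).

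The lower calls that kept their sign under all 5 scalings were those of 6 genes, of which AT5G20820, PIF4 and MYB3 also kept their call. AT5G20820 had means of 0.16 ± 0.06 and 0.96 ± 0.04 and a difference of -0.80 ± 0.05 (95% interval -0.92 to -0.67, adjusted p = 0.000177). PIF4 had means of 4.39 ± 0.02 and 5.07 ± 0.04 and a difference of -0.68 ± 0.04 (95% interval -0.79 to -0.57, adjusted p = 0.000176), and PIL6 differed by -0.42 ± 0.04 (95% interval -0.52 to -0.32, adjusted p = 0.000756). MYB3, which rose in both mutants against WT, was lower in se-2 by a difference of -0.65 ± 0.07 (95% interval -0.83 to -0.47, adjusted p = 0.00128). TCP11 differed by -0.60 ± 0.06 (95% interval -0.75 to -0.46, adjusted p = 0.000847) and ABI2 by -0.39 ± 0.04 (95% interval -0.49 to -0.28, adjusted p = 0.00120). The arrays of the mutants did not overlap for any of these 6 genes, though the call of PIL6 ended with quantile normalization (-0.076, adjusted p = 0.252), the percentile over all probes (-0.075, 0.430) and the deposited values (-0.021, 0.819). Those of TCP11 (-0.26, adjusted p = 0.0805) and ABI2 (-0.039, 0.728) ended with the percentile over all probes. The other 15 lower calls turned sign under at least 1 scaling. They were those of PHYA, PIL5 and FHL in light signalling, of MYB107, HB40, NAC080 and TIFY7, of COR47, ABI1 and ABI5, and of MEE22, MEE23, WRKY35, EDA3 and EDA18, with differences of -0.17 to -0.33. Leaving out 1 array ended 10 of these 15 calls, 9 without se-2 replicate 1, 8 without se-2 replicate 2, 6 without se-2 replicate 3, 4 without cbp20 cbp80 replicate 1, 7 without cbp20 cbp80 replicate 2 and 5 without cbp20 cbp80 replicate 3, with an adjusted p of up to 0.123.

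For some members that fell in both mutants the difference between the mutants was small by the brightest probe. FHL differed by -0.21 ± 0.07 (95% interval -0.37 to -0.04, adjusted p = 0.0472), a call that ended without any 1 of the 6 arrays. AT1G58590.2 differed by -0.04 ± 0.06 (95% interval -0.18 to 0.10, adjusted p = 0.581), PIF3 by -0.04 ± 0.04 (95% interval -0.15 to 0.07, adjusted p = 0.449), DRB2 by -0.05 ± 0.04 (95% interval -0.16 to 0.06, adjusted p = 0.385), JAZ10 by 0.05 ± 0.10 (95% interval -0.20 to 0.30, adjusted p = 0.685) and IAR3 by -0.03 ± 0.05 (95% interval -0.15 to 0.09, adjusted p = 0.618). These 5 did not pass, and the widest of their intervals is that of JAZ10. By another probe, however, IAR3 (-0.61, adjusted p = 0.0011), PIF3 (-0.23, 0.0139) and DRB2 (-0.18, 0.019) were called lower in se-2. The other probes of AT1G58590.2 and JAZ10 were not called. The mutants also differ in their place on the slide, since se-2 replicates 1 and 2 were in row 1 and the other 4 mutant arrays in row 2. With row 2 alone 1 se-2 array stood against 3 cbp20 cbp80 arrays and was taken to vary like them. The differences below are those of the members that this fit called, and the share called over all tested transcripts was not counted. AGO2 was 1.08 higher there, COR15B 0.81 and NF-YA5 0.76. AT5G20820 differed by -0.75, MYB3 by -0.70, TCP11 by -0.67, PIF4 by -0.66, ABI2 by -0.42 and PIL6 by -0.41. In a fit of all 9 arrays, whose error includes the spread of WT, limma called 0 members in either direction, with 4 higher and 0 lower at an unadjusted p under 0.05 and a lowest adjusted p of 0.121.

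**Figure D3:**
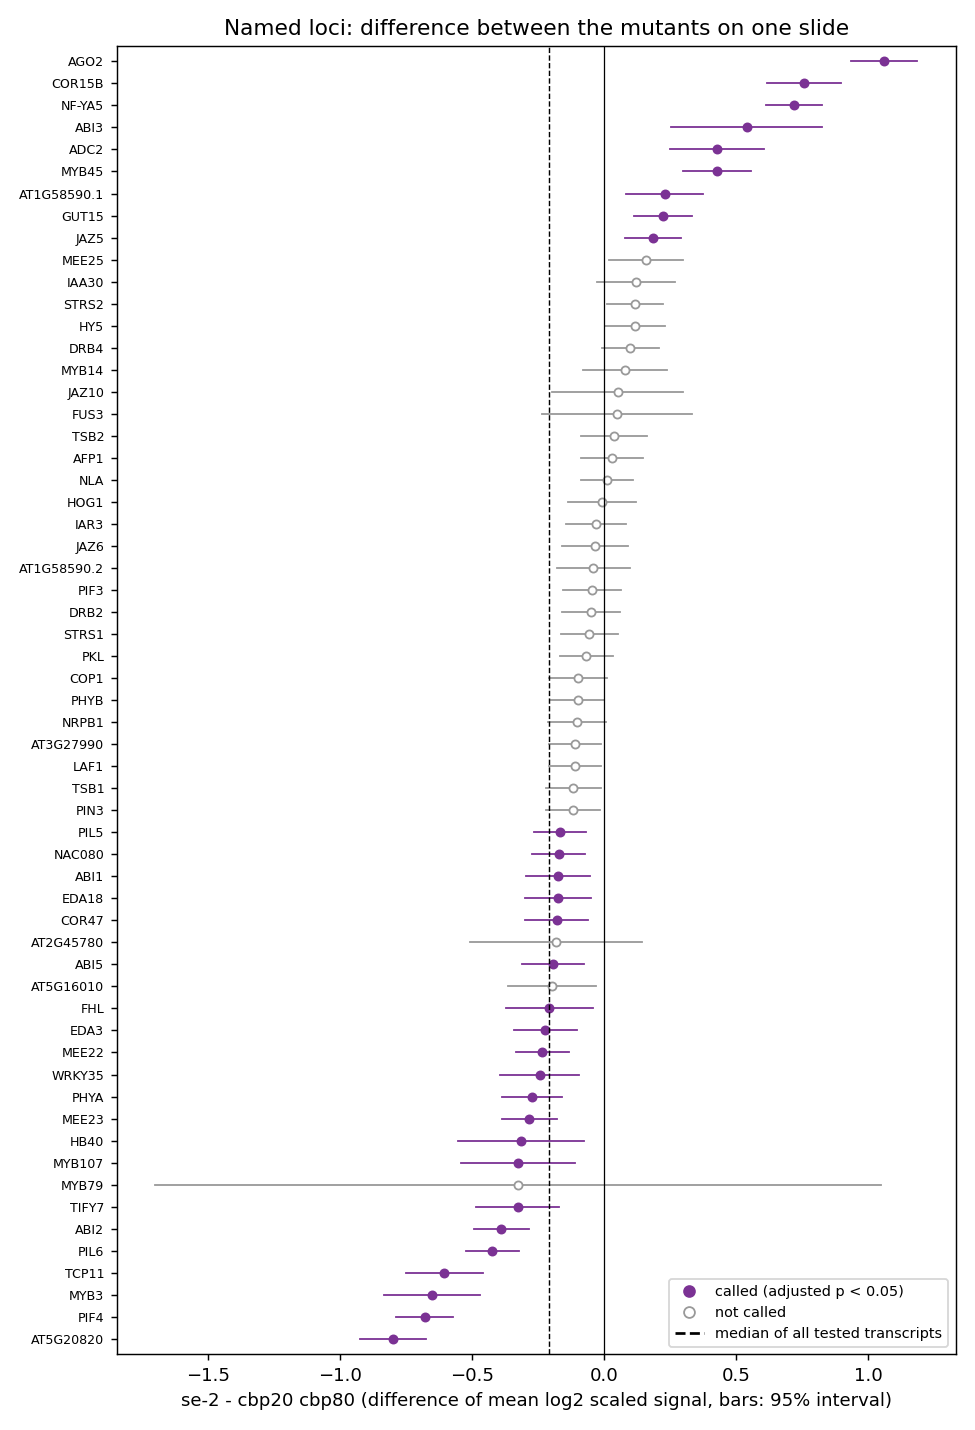
Difference between se-2 and cbp20 cbp80 for the 59 tested members, with 95% intervals from the fit of the 6 mutant arrays; the dashed line marks the median of all tested transcripts, at -0.21. AGO2 lies farthest to the right, at 1.06, and AT5G20820 farthest to the left, at -0.80.

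Each transcript has 3 probes, which share the RNA and the array and are no replicates, but read different stretches of it. Of the 26 members called in se-2 against WT, all tested probes were called the same way for 17, and at least 1 further probe was for 21. In cbp20 cbp80 these numbers were 14 and 20 of 24, and between the mutants 19 and 23 of 30, of which HB40 had a single tested probe. Of the 33 members not called in se-2 by their brightest probe, 10 had another probe called, and of the 35 in cbp20 cbp80 9 had. In both mutants these were EDA3, PHYB and PIL5 in the higher and PKL and STRS1 in the lower direction. In se-2 alone they were PIL6 and NLA (higher) and COR47, MEE23 and PHYA (lower), and in cbp20 cbp80 alone IAA30 and MYB107 (higher) and ABI3 and MEE22 (lower). Between the mutants this held for 12 of 29. These were IAA30 and HY5 (higher) and IAR3, JAZ6, PIF3, PHYB, COP1, TSB1, NLA, DRB2, NRPB1 and AT5G16010 (lower). Among the called members, a probe called in the opposite direction was seen for 0 in each comparison. How often further probes were called over all tested transcripts of the array was not counted, so these counts have no background beside them. The probes of LAF1, MYB3, MYB45, FHL, JAZ5, JAZ10, IAR3, DRB2, ABI5 and AT5G16010 were all called in both mutants in the fit without the slide block. AGO2 changed by 1.51 to 1.63 in se-2 by its 3 probes, and by 1.05 to 1.06 between the mutants. Probes disagreed for some members. Those of HOG1 gave -0.65 to 0.30 in se-2, those of DRB4 -0.08 to 0.88 and those of EDA3 -0.25 to 0.75. The probes of NAC080 gave -0.68 to 0.01 and those of TSB1 -1.48 to -0.44 in se-2, and those of GUT15 -0.11 to 0.23 between the mutants. ADC2 gave -0.77 to -0.04 in se-2, with 1 of its 3 probes called, while all 3 were higher in se-2 than in cbp20 cbp80.

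**Figure D4:**
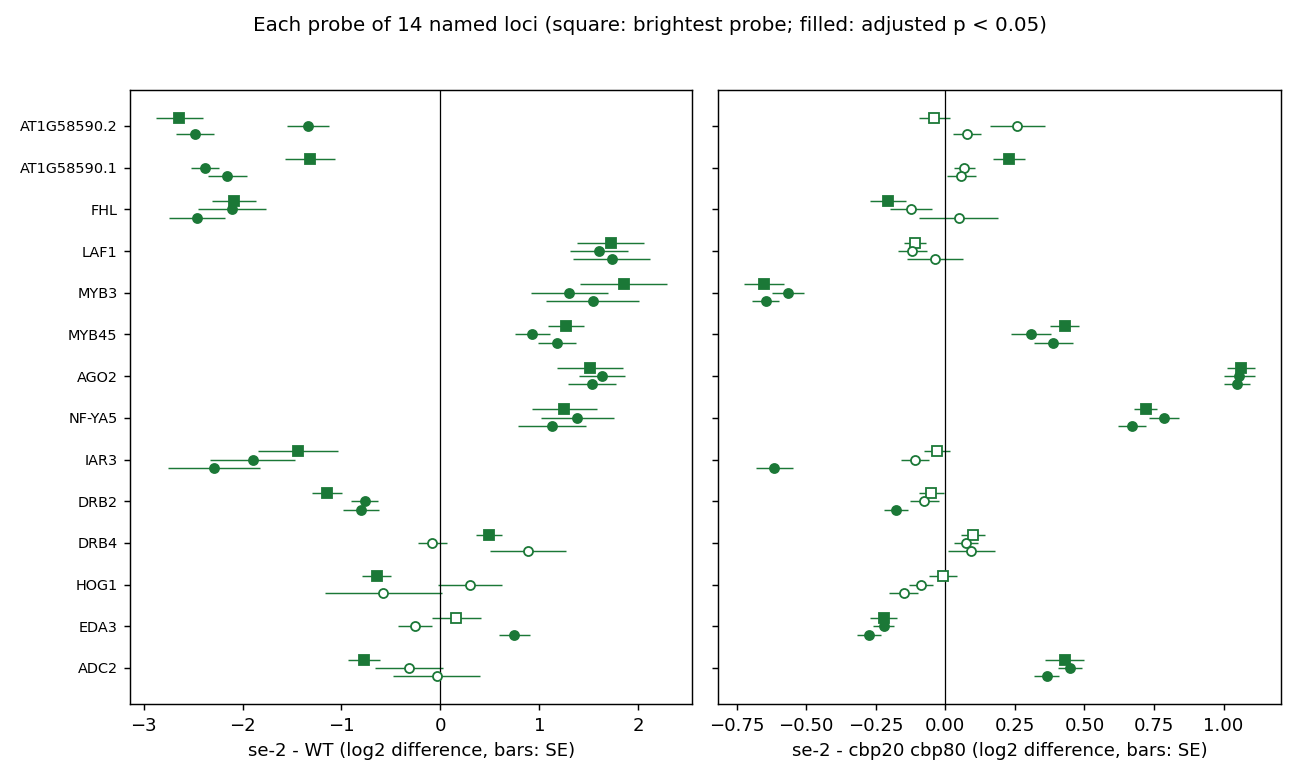
Change of each probe of 14 members in se-2 against WT (left) and between the mutants (right), in log2 units with the SE of the fit; squares mark the brightest probe and filled symbols a call. The probes of AGO2 lie between 1.51 and 1.63 on the left, while those of HOG1 lie on both sides of 0, from -0.65 to 0.30.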

How the data were processed

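Total RNA of 2-week-old seedlings was labelled with Cy3 and hybridised to 1-colour arrays, per the labels' protocols. For each spot the deposited scanner files give an intensity, which the software had freed of background, per the file headers. That software, Agilent Feature Extraction, was of version 10.5.1.1 on the first 2 WT arrays and 10.7.3.1 elsewhere, and WT replicate 3 used another protocol of it. The authors' deposited value table holds log2 values that rank the bright probes as the processed signal does. Its column medians were 0.32 to 0.323, its log2 scale was read from the values, and its centring is unknown.

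Control spots and outlier spots (0 to 39 per array) were left out, and 0 spots were saturated. The software marked 14.6% to 24.7% of the probes of an array as well above background, and 1835 probes on all 9 arrays. The 75th percentile of these 1835 was subtracted, array by array, from the log2 of the processed signal. Probes that all 3 arrays of at least 1 genotype showed well above background, 3103 in number, were tested with limma 3.58.1 (lmFit, eBayes) in R 4.3.3, two-sided, with Benjamini-Hochberg adjustment over all of them and 23 values missing. The mutants were compared in a fit of their 6 arrays over 3040 probes. A transcript stands for its brightest probe over the 9 arrays. The fits were tested on simulated data. The number of arrays limits the precision.

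Named are the 6 members with the largest rise and fall per mutant, the 5 per direction between the mutants, those called with the slide as a block, and other members with a symbol. The members, groups and lists were chosen with earlier results of these data known. Symbols, classes and neighbours come from a RefSeq table of TAIR10.1, and the build of the array's design is not given in the sources used here. Alternatives were normexp (offset 50), quantile normalization, the deposited values, the percentile over all probes, other filters, replicate and slide blocks (slide correlation 0.948), the mean of a transcript's probes, and fewer arrays. Normexp used the median spot signal, since no mean signal was present, in place of the planned column. Plots were made with matplotlib 3.10.9 (Python 3.11.15).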

Additional observations from a re-analysis of the deposited data

How the results depend on the processing

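Counts of called members moved by over 1.5 times under the following settings. For se-2 against WT (11 higher, 15 lower) they were 28 higher and 2 lower with the percentile over all probes, 25 lower with normexp, 0 and 2 with the slide as a random block, and 5 higher with the 6 arrays compared alone. For cbp20 cbp80 against WT (9 and 15) they were 24 and 7 with the percentile over all probes, 24 lower with normexp, 4 and 8 with no filter on dim probes, 0 and 1 with the slide as a block, and 5 and 8 with the 6 arrays alone. Between the mutants (9 and 21) they were 18 and 8 with quantile normalization and 19 and 7 with the deposited values. The percentile of all probes gave 33 and 3, no filter 9 lower, the replicate block 13 lower, and all 9 arrays 0 and 0. The second slide row alone, which leaves 1 se-2 array, also moved these counts and was an alternative chosen after seeing the data. Leaving out 1 array gave 6 to 15 higher and 10 to 24 lower in se-2, 5 to 15 and 11 to 22 in cbp20 cbp80, and 7 to 9 and 12 to 17 between the mutants. Fewer arrays also leave fewer degrees of freedom, and the other causes were not tested. The scaling moved the median of all tested probes from 0.002 to 0.95 (percentile of all probes) and -0.77 (normexp) in se-2, and from -0.15 to 0.20 and -0.43 between the mutants. Shares called over all tested transcripts, given above, cover the main fits and, against WT, the slide block and the percentile over all probes. Under the other settings they were not counted, so those counts do not show a move particular to the members.

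Over the 80 called results of single members and their alternatives, 897 kept direction and call, 353 kept the direction but not the call and 30 changed sign. In se-2 against WT the changed signs were HOG1 0.46 with quantile normalization, IAA30 -0.19 with normexp, and MEE22 0.10, ADC2 0.23, HOG1 0.30 and STRS2 0.22 with the percentile over all probes. In cbp20 cbp80 it was HOG1 0.23 with quantile normalization. Between the mutants they were COR47 0.28 and PHYA 0.002 with quantile normalization, ABI3 -0.26 and JAZ5 -0.029 with normexp and COR47 0.42, ABI1 0.006, FHL 0.027 and HB40 0.01 with the deposited values. With the percentile over all probes they were COR47 0.17, ABI5 0.16, ABI1 0.18, MEE22 0.12, MEE23 0.067, WRKY35 0.11, EDA3 0.13, EDA18 0.17, TIFY7 0.022, PHYA 0.077, PIL5 0.18, FHL 0.14, MYB107 0.023, HB40 0.035 and NAC080 0.18.

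Deviations of samples with the same replicate number correlated by -0.048 to 0.03, so the numbers share no batch that these data show. The replicate block gave 8 higher and 15 lower in each mutant against WT, and 7 and 13 between the mutants, with the share over all tested transcripts not counted. Dim probes limit what can be read for the 6 untested members, and signals of different probes are not comparable.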
